A study of Macaca fascicularis with 3 samples.

Results

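The 5p strands of the miR-30 family are the 5 mature miRNAs mfa-miR-30a-5p, mfa-miR-30b-5p, mfa-miR-30c-5p, mfa-miR-30d-5p and mfa-miR-30e-5p, chosen by name from the 432 mature miRNAs of Macaca fascicularis (cynomolgus monkey) in the deposited count table. The prefix mfa- marks the species and is left out below. All 5 were listed, and all 5 passed the minimum mean count of 10 used below, as did 391 of the 432 names. The table covers small RNA from the kidney cortex of 3 naïve animals aged 2 to 3 years, with 1 library per animal. The animals formed 1 group with no treatment and no comparison group, so the comparisons are between miRNAs and between animals. Nothing in the labels gives the sex, the origin or a sequencing batch of an animal.

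A miRNA hairpin gives a pair of mature strands, 5p and 3p, of which Argonaute usually keeps one as the guide. A guide recognises messenger RNAs mainly through its seed, the short stretch near its 5′ end, and the miR-30 5p strands share that seed, so their predicted targets largely overlap. Outside the seed, miR-30a, miR-30d and miR-30e resemble each other most, and miR-30b resembles miR-30c. In kidney the family is known from podocytes, the filtering cells of the glomerulus, where it restrains Notch signalling, and from tubule epithelium, where it restrains the shift towards a mesenchymal state. In mammals the hairpins lie in neighbouring pairs, miR-30a beside miR-30c-2, miR-30b beside miR-30d, and miR-30e beside miR-30c-1, and both miR-30c hairpins give the same 5p strand.

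The libraries held 3957188 to 4707892 counts assigned to listed miRNAs, and levels are given as CPM, counts per 1000000 of these. Of the markers known from kidney, miR-192-5p, miR-194-5p and miR-204-5p had mean levels from 4292 to 48124 CPM, and miR-215-5p was at 18.9 CPM. Those of endothelium (miR-126), smooth muscle (miR-143-3p and miR-145-5p) and erythroid cells (miR-451) ranged from 4552 to 43515 CPM, while miR-122a-5p of liver and miR-124a-3p of neurons were at 6.63 and 38.8 CPM. In bulk tissue of this kind, fewer cells of a type and less of a miRNA per cell cannot be told apart. The library of animal 3 stood apart: 26 of 391 names lay more than 4-fold below both other animals there, against 3 in animal 1 and 0 in animal 2. None of the 5 miR-30 strands was among them in any animal.

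The family filled a large part of every library. The 5 strands together held 598575 counts in animal 1, 704334 in animal 2 and 725811 in animal 3. As a share of all listed counts this was 13.90% for animal 1, with a Wilson 95% confidence interval from 13.87 to 13.93. For animal 2 it was 14.96%, with an interval from 14.93 to 14.99, and for animal 3 it was 18.34%, with one from 18.30 to 18.38. Animal 3 was highest, and the 3 intervals, which cover counting error only, did not overlap. Such intervals are not given here for other groups of names. In the chi-square test described below, 100% of the 81 names with a mean of at least 1000 CPM differed between libraries beyond counting error. The non-overlap thus says nothing particular about the family. The mean share was 15.7% ± 2.32 (SD, n = 3), and it was 14.4% without animal 3. When names were grouped by number and strand into 350 groups, a grouping chosen after the values were seen, this was the highest mean share. In that grouping let-7d and miR-98, whose names mark no strand, stood apart from the other let-7 names, and they are counted with them here. The 2 names of miR-10 on the 5p strand followed with 12.7% ± 1.03, the 9 guide names of let-7 and miR-98 with 10.6% ± 3.02, and the 3 names of miR-29 on the 3p strand with 8.24% ± 0.687. The miR-30 strands were above each of these groups in 3 of 3 animals. Their mean excess on the log2 scale was 0.30 ± 0.13 (SD) over miR-10, 0.60 ± 0.62 over let-7 and 0.93 ± 0.10 over miR-29. A two-sided exact permutation test that flips signs over the 3 animals gave p = 0.25 each time, the smallest that it can give, so the order cannot pass a threshold of 0.05 in this design. For let-7 the SD was as large as the difference, which was 0.02, 0.53 and 1.26 in animals 1, 2 and 3 and averaged 0.28 without animal 3.

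The members fell into a high and a low set, as the plot of levels by animal shows. miR-30a-5p, a strand known for restraining the autophagy gene BECN1, had 244729 counts in animal 1, 282299 in animal 2 and 320795 in animal 3. Its level was 56835, 59963 and 81066 CPM in the same order, and it ranked second among all names in every library. Animals 1 and 2 were close together and animal 3 was higher. The mean was 65955 CPM ± 13180 (SD, n = 3), a coefficient of variation of 20.0%.

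miR-30c-5p, known for restraining connective tissue growth factor and the lipid transfer protein MTTP, had 205671, 207536 and 214481 counts in animals 1, 2 and 3. In CPM these were 47764, 44083 and 54200, ranks 6, 5 and 3 of the libraries. The mean was 48682 CPM ± 5121 (SD, n = 3), with animal 3 again highest and animal 2 lowest. miR-30d-5p, known with miR-30b-5p for restraining the glycosyltransferase gene GALNT7, had 97205, 161512 and 144792 counts. In CPM these were 22574, 34307 and 36590, ranks 13, 8 and 11, so that here animal 1 was the low one. The mean was 31157 CPM ± 7520 (SD, n = 3).

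The other 2 members were several times lower. miR-30b-5p had 28013, 29374 and 23482 counts in animals 1, 2 and 3, or 6506, 6239 and 5934 CPM, with a mean of 6226 CPM ± 286 (SD, n = 3). Its values lay close together, with a coefficient of variation of 4.59%. miR-30e-5p, known for restraining the mitochondrial carrier gene UCP2 in tubule cells, had 22957, 23613 and 22261 counts, or 5331, 5016 and 5625 CPM. Its mean was 5324 CPM ± 305 (SD, n = 3) and its coefficient of variation 5.73%. Over all listed names these strands ranked 35 and 36 by mean CPM, against 2, 3 and 11 for miR-30a-5p, miR-30c-5p and miR-30d-5p. Mature miRNAs differ little in length and a read spans a whole strand, so CPM was not divided by length.

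**Figure D1:**
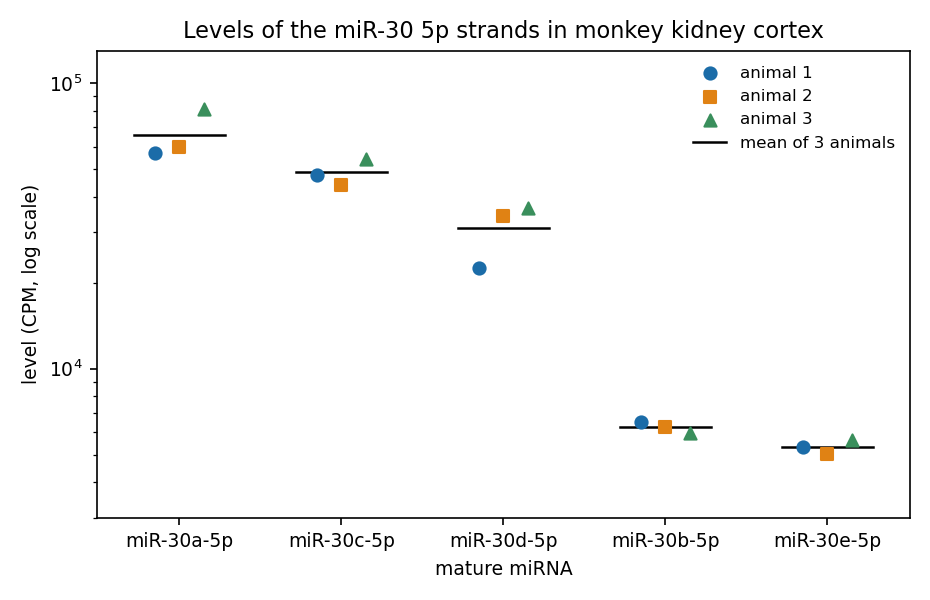
Level of each miR-30 5p strand in CPM on a log axis, with 1 point per animal and a line at the mean of 3 animals. miR-30a-5p, miR-30c-5p and miR-30d-5p lie between 22574 and 81066 CPM in every animal, and miR-30b-5p and miR-30e-5p between 5016 and 6506 CPM.

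The order of levels was miR-30a-5p, miR-30c-5p, miR-30d-5p, miR-30b-5p and miR-30e-5p in each animal. All 10 pairs of members kept this order in 3 of 3 animals, and the same exact permutation test gave p = 0.25 for every pair, also after Benjamini-Hochberg adjustment over the 10 pairs. That is again the smallest value that 3 animals allow, so the sizes of the differences are set beside their spread. miR-30a-5p exceeded miR-30c-5p by 0.25, 0.44 and 0.58 on the log2 scale in animals 1, 2 and 3, a mean of 0.43 ± 0.17 (SD). miR-30c-5p exceeded miR-30d-5p by 1.08, 0.36 and 0.57, a mean of 0.67 ± 0.37. The step from miR-30d-5p down to miR-30b-5p was the widest between neighbours, with 1.79, 2.46 and 2.62, a mean of 2.29 ± 0.44. The last neighbours, miR-30b-5p and miR-30e-5p, differed by 0.29, 0.31 and 0.08, a mean of 0.23 ± 0.13. In animal 3 these strands had almost the same level, and across animals their CPM ranges did not overlap but nearly met, at 5934 for the lowest miR-30b-5p value and 5625 for the highest miR-30e-5p value. The CPM ranges of miR-30a-5p, miR-30c-5p and miR-30d-5p did not overlap either, although the gap between miR-30a-5p in animal 1 and miR-30c-5p in animal 3 was small.

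Shares within the family show the make-up without any scaling between libraries. miR-30a-5p made up 40.9%, 40.1% and 44.2% of the 5p counts in animals 1, 2 and 3, a mean of 41.7% ± 2.18 (SD, n = 3). miR-30c-5p made up 34.4%, 29.5% and 29.6%, a mean of 31.1% ± 2.80, and was higher in animal 1 than in the others. miR-30d-5p made up 16.2%, 22.9% and 19.9%, a mean of 19.7% ± 3.35, and was lowest in that same animal. These 3 strands together held 92.6% ± 1.11 of the family. miR-30b-5p held the small share of 4.68%, 4.17% and 3.24%, and miR-30e-5p that of 3.84%, 3.35% and 3.07%. For the share of miR-30c-5p, the Wilson 95% confidence intervals of animal 2 (29.36 to 29.57) and animal 3 (29.45 to 29.66) overlapped. Those of the other strands did not overlap between animals. The closest of these were those of miR-30e-5p in animal 2 (3.31 to 3.39) and animal 3 (3.03 to 3.11). Such intervals cover counting error only and are not given here for other names, so non-overlap says nothing particular about the family. Reads that fit several near-identical members may have been divided between names in a way the sources used here do not state, so levels of single members are less certain than the family sum.

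**Figure D2:**
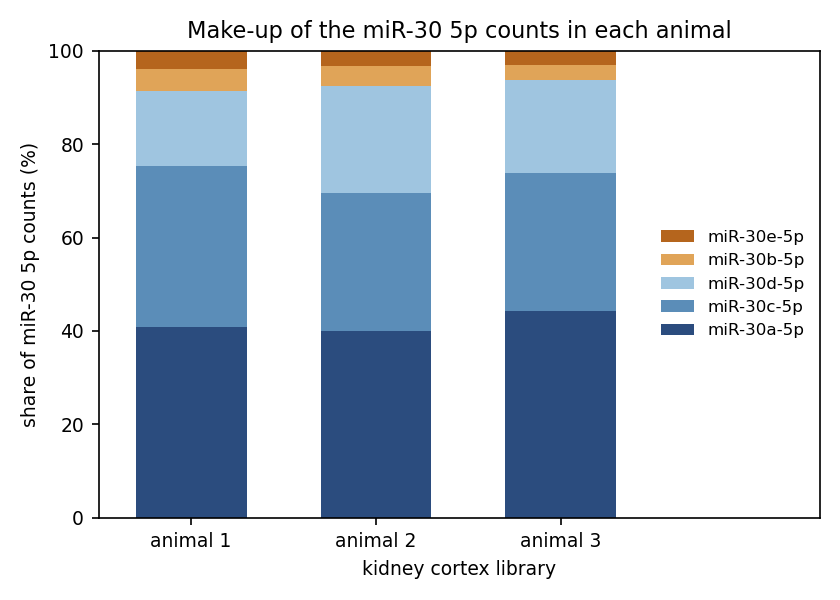
Share in percent of the miR-30 5p counts held by each strand, as stacked bars with 1 bar per animal. miR-30a-5p takes 40.1% to 44.2% in the 3 animals, and the band of miR-30d-5p is narrower in animal 1 (16.2%) than in animals 2 (22.9%) and 3 (19.9%).

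Ratios between members within an animal were steady for some pairs and not for others. The steadiest of the 10 pairs was miR-30c-5p over miR-30e-5p, with ratios of 8.96, 8.79 and 9.63 in animals 1, 2 and 3, the highest being 1.10 times the lowest. The least steady was miR-30d-5p over miR-30b-5p, with 3.47, 5.50 and 6.17, the highest being 1.78 times the lowest. Animal 1 was the low one there, as it was for miR-30d-5p over miR-30e-5p, with 4.23, 6.84 and 6.50. miR-30b and miR-30d are neighbouring hairpins in mammals, so the widest shift was within a neighbouring pair. For the other neighbouring pairs the ratio of hairpins cannot be read from 5p counts, because miR-30c-5p comes from hairpins beside both miR-30a and miR-30e. miR-30a-5p over miR-30c-5p was 1.190, 1.360 and 1.496. The pairs were ordered by these values after they were seen, and with 3 animals no test of a difference in steadiness was made.

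**Figure D3:**
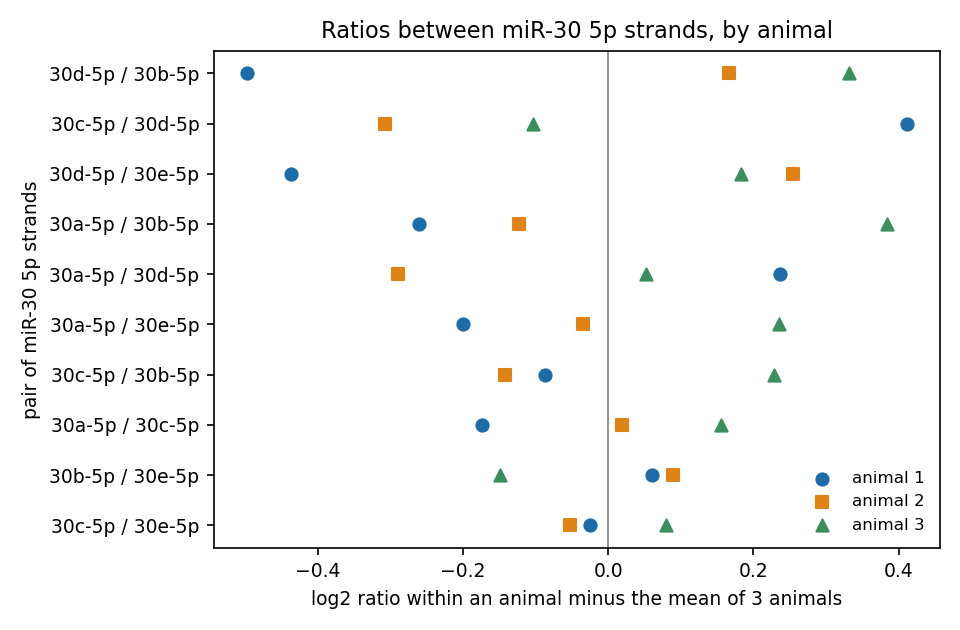
Log2 ratio of each of the 10 pairs of miR-30 5p strands in each animal, as the difference from the mean of 3 animals, with pairs ordered from the steadiest at the bottom to the least steady at the top. Points of miR-30c-5p over miR-30e-5p lie together near 0, and animal 1 lies apart in the ratios of miR-30d-5p to miR-30b-5p, miR-30c-5p and miR-30e-5p but not in that of miR-30a-5p to miR-30d-5p.

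The spread between animals was then set beside that of all names, after scaling with TMM, the trimmed mean of M values. TMM-scaled CPM of miR-30a-5p was 56222, 57005 and 86202 in animals 1, 2 and 3, a span from the lowest to the highest of 1.53-fold. Without animal 3 this span was 1.01-fold, so that library alone set it. miR-30d-5p had the widest span, with 22331, 32614 and 38908 TMM-scaled CPM or 1.74-fold, and 1.19-fold without animal 1. miR-30c-5p spanned 1.38-fold and miR-30e-5p 1.25-fold. miR-30b-5p had the narrowest span, with 6435, 5932 and 6310 TMM-scaled CPM or 1.08-fold. Of the 391 names with a mean count of at least 10, only 7 had a smaller span than miR-30b-5p, and 201 had a smaller one than miR-30d-5p.

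No member spanned more than 2-fold, against 39.9% of the 391 names and 23.5% of the 81 names with a mean of at least 1000 CPM. The median span was 1.38-fold over the 5 members, 1.40-fold over those 81 abundant names and 1.71-fold over all 391. A test of homogeneity by chi-square, adjusted over the 391 names by the Benjamini-Hochberg method, asked whether the counts of a name differed between libraries by more than counting error. It called all 5 members, against a background of 80.6% of the 391 names and 100% of the 81 abundant ones, so the calls say nothing particular about the family. The smallest departure was that of miR-30b-5p, with an adjusted p of 8.68e-23 in this chi-square test over all names. Counting error alone would give coefficients of variation of 0.177% to 0.670% for the single values, far below the 4.59% to 24.1% seen between animals. Whether separate animals or separate library preparations make that spread cannot be told apart with 1 library per animal.

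**Figure D4:**
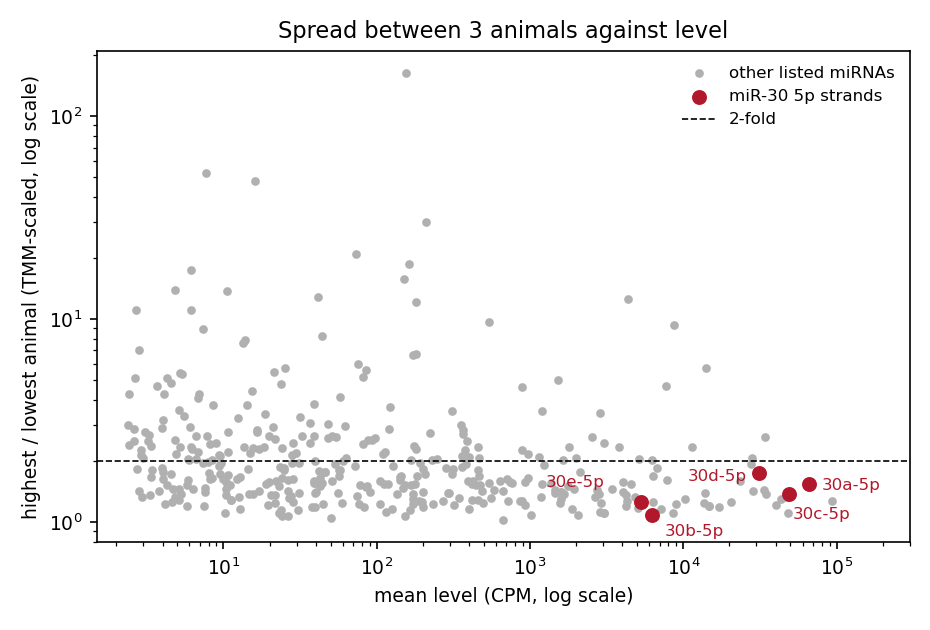
Span between the highest and the lowest animal (TMM-scaled CPM, log axis) against mean CPM (log axis) for names with a mean count of at least 10, leaving out 3 names with 0 counts in an animal. The 5 miR-30 5p strands, in red, lie between 1.08-fold and 1.74-fold, below the dashed line at 2-fold.

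The animal in which a member was highest was then compared between scalings. miR-30a-5p, miR-30c-5p, miR-30d-5p and miR-30e-5p were highest in animal 3 with TMM, with DESeq2 size factors, with totals alone and in the normalized values of the authors. With totals alone, the median log2 difference of animal 3 from the mean of the others was -0.14 over the 391 names, against -0.01 with TMM. All 5 members stood above that median with totals alone. miR-30b-5p did so only narrowly, with 6506, 6239 and 5934 CPM in animals 1, 2 and 3. miR-30b-5p was highest in animal 1 with TMM, DESeq2 size factors and totals, and in animal 2 in the values of the authors. The lowest value of miR-30b-5p was in animal 2 with TMM and DESeq2 size factors and in animal 3 otherwise. The lowest value of miR-30a-5p moved from animal 1 to animal 2 with DESeq2 size factors. The summed level of the 5 strands was 137512, 142227 and 195036 TMM-scaled CPM, a span of 1.42-fold with animal 3 highest.

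Almost all miR-30 counts came from the 5p strands. The 3p names listed were 6, one for each hairpin, and the 5p strands held 98.7% of the counts of all 11 miR-30 names. In each of the 6 hairpins, with miR-30c-5p set against either of its 3p strands, the 5p strand was higher in 3 of 3 animals, and the exact permutation test by sign flips gave p = 0.25, the smallest possible, for each, also after Benjamini-Hochberg adjustment. For scale, the 5p strand was higher in all animals in 64 of 122 listed hairpins (52.5%) with 10 or more counts on average over both strands. The 122 leave out hairpins with an unlisted strand. They also leave out those whose strand names do not match, such as miR-26a-5p and miR-26a-1-3p. The share and the ranks given below hold for the hairpins counted only. The median ratio of 5p to 3p was 2.37 over the 122 hairpins and 37.4 over those 64. No name of miR-384, a further miRNA known to carry the miR-30 seed, was among the 432.

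The degree of 5p excess differed widely between the hairpins. The miR-30c-5p counts cannot be divided between its hairpins, so miR-30c is compared with the sum of its 3p strands. miR-30a was the least one-sided, with 6926, 9690 and 8591 counts of miR-30a-3p in animals 1, 2 and 3 beside its 5p counts given above. The 3p strand was 2.75% (Wilson 95% confidence interval 2.69 to 2.82), 3.32% (3.25 to 3.38) and 2.61% (2.55 to 2.66) of the counts of that hairpin. The log2 ratio of 5p to 3p was 5.08 ± 0.19 (SD, n = 3), and 34 of the 64 hairpins had a higher one. miR-30a-3p alone held 96.9% of all miR-30 3p counts and was at 1946 CPM ± 298.

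Of miR-30a, miR-30b, miR-30d, miR-30e and the summed miR-30c, miR-30d was the most one-sided. miR-30d-3p had 16, 16 and 17 counts in animals 1, 2 and 3, against 97205, 161512 and 144792 of miR-30d-5p. The log2 ratio was 12.89 ± 0.37 (SD, n = 3), and none of the 64 hairpins had a higher one. Hairpins with an unlisted strand or with unmatched strand names were not in that ranking. miR-30e-3p had 22, 23 and 15 counts, for a log2 ratio of 10.12 ± 0.28, which 8 of the 64 hairpins exceeded. miR-30e-5p and miR-30b-5p had similar levels, but miR-30b-3p had 161, 152 and 24 counts and its hairpin a lower log2 ratio of 8.30 ± 1.37, or 7.51 without animal 3. For miR-30c the log2 ratio to both 3p strands summed was 10.86 ± 0.69. All of these ratios carry a pseudocount of 1 on each strand.

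The 5p and 3p strands of a hairpin did not always move together between animals. For miR-30a both strands were lowest in animal 1 and highest in animal 3 after TMM scaling. The 5p strand spanned 1.53-fold and the 3p strand 1.45-fold. miR-30b-5p spanned 1.08-fold while miR-30b-3p spanned 5.74-fold, with 37.0, 30.7 and 6.45 TMM-scaled CPM, and 1.21-fold without animal 3. After TMM scaling, animal 3 was low for this 3p strand and not for its 5p strand. With totals alone the 5p strand too was lowest in animal 3, at 5934 CPM against 6506 and 6239 in animals 1 and 2. The 3p share of the hairpin, which needs no scaling, was 0.571%, 0.515% and 0.102% in animals 1, 2 and 3. The Wilson interval of the last, 0.0686 to 0.152, lay below those of the others, 0.490 to 0.666 and 0.439 to 0.603. For miR-30c, whose 5p strand is shared, the 3p strands miR-30c-1-3p and miR-30c-2-3p had 31, 11 and 0 and 127, 121 and 66 counts. The count of 0 for miR-30c-1-3p in animal 3 allows up to 0.758 CPM there, the level of 3 counts. Both 3p strands summed to 0.0768%, 0.0636% and 0.0308% of the miR-30c counts, again lowest in animal 3, while miR-30c-5p was highest in that animal. miR-30d-3p and miR-30e-3p were not called different between libraries, with adjusted p of 0.627 and 0.805 in the chi-square test over all names, at 15 to 23 counts per library. The same chi-square test called miR-30a-3p (adjusted p of 2.47e-116), miR-30b-3p (1.28e-17), miR-30c-1-3p (7.37e-08) and miR-30c-2-3p (0.00585). Of all 391 names tested, 80.6% were called. As the library of animal 3 stood apart for other names too, its part in these 3p values was not tested.

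**Figure D5:**
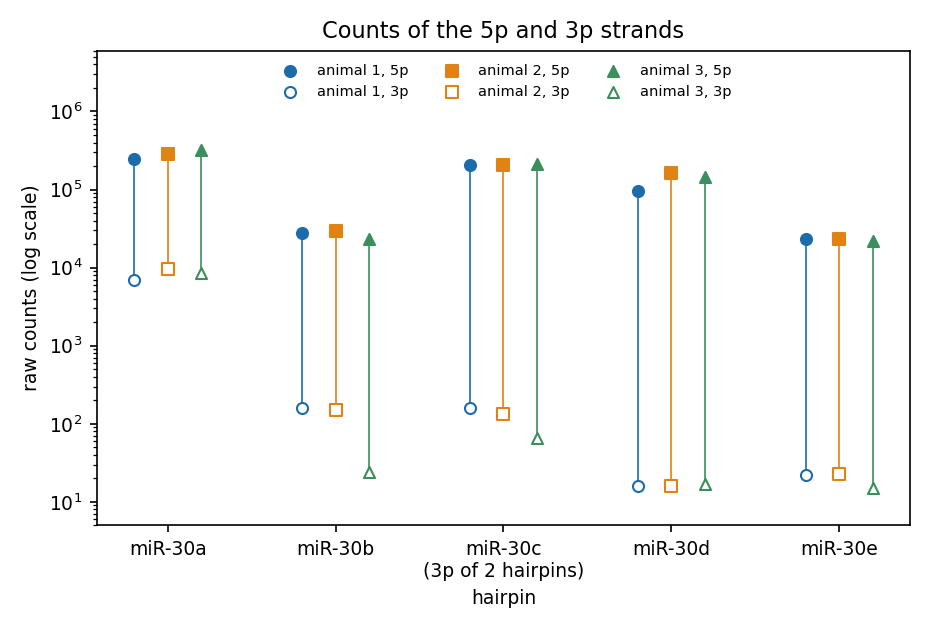
Raw counts (log axis) of the 5p strand (filled) and the 3p strand (open) of each miR-30 hairpin in each animal, with the 3p strands of both miR-30c hairpins summed. The 5p strand lies above the 3p strand throughout, by the least for miR-30a and by the most for miR-30d as drawn here, and the 3p strand of miR-30b drops to 24 counts in animal 3.

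Names outside the family with a profile most like the summed 5p strands were found among 75 names with a mean of at least 1000 CPM. Likeness was the root mean square distance between log2 levels centred over the 3 libraries, and 4 of the 75 names lay within 0.1 of the family. Closest was miR-29c-3p, known for restraining collagen genes, at a distance of 0.01, with 24771, 26119 and 35305 TMM-scaled CPM in animals 1, 2 and 3. It was followed by miR-92a-3p at 0.03, miR-125a-5p at 0.07, miR-374b-5p at 0.09 and miR-139-5p at 0.10. These names too were highest in animal 3. Of the members, miR-30a-5p lay closest to the family sum of which it is the largest part, at 0.06, followed by miR-30c-5p at 0.10 and miR-30e-5p at 0.13. miR-30d-5p lay at 0.20 and miR-30b-5p at 0.22. A profile over 3 libraries has few ways to differ, so a close match is a description of these libraries.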

How the data were processed

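Small RNA of kidney cortex was sequenced from 3 animals, 1 library each. Per the labels' protocols, 25 to 30 mg of tissue was used, small RNA was enriched from 5 µg of total RNA and 12 ng entered a library. The deposited raw counts are reads mapped to M. fascicularis miRNAs with 0 mismatches, keeping names with a minimum of 15 reads, per the file headers. The aligner, the miRNA reference and the handling of reads fitting several names are not given in the sources used here. The deposited normalized signal was made by the authors with edgeR, per the file headers, and equals the raw count times 1 factor per library in 100% of values, within 0.06.

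Counts were analysed in Python 3.11.15, with TMM factors of 1.011, 1.052 and 0.940 for animals 1, 2 and 3 from edgeR 4.0.16 in R 4.3.3. DESeq2 1.42.0 size factors, totals, count minimums and leaving out an animal were alternatives. With a single group there was no contrast for a quasi-likelihood test. The chi-square test compared the counts of a name with the TMM effective library sizes, at an adjusted p of 0.05. It covered names with a mean count of at least 10. The test was tried on simulated counts that held counting error and set changes in 1 library, with no spread between animals. Its behaviour with such spread was not tested. Sign flips used log2(CPM + 1) for pairs of members and log2 summed counts, without a pseudocount, for groups of names. For strands they used log2 counts with a pseudocount of 1. Wilson intervals and the limit of 3 counts for a count of 0 reflect counting error alone, and no molecular identifiers are described. Named were the members, the miR-30 3p strands, tissue markers, the largest groups of names and the 5 closest profiles at a mean of at least 1000 CPM. Sequences and genomic positions were not used here, so a search for further names with the same seed was not run. The members and lists were chosen with earlier results of these data known.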

Additional observations from a re-analysis of the deposited data

How the results depend on the processing

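The animals in which miR-30a-5p and miR-30b-5p were lowest changed with the scaling. The animal in which miR-30b-5p was highest changed only in the values of the authors, which are not divided by library totals. Of 101 recalculated values, 92 stayed within the limit set for them, 9 moved and 0 changed sign. Many of the 101 are shares, counts or spans, which cannot be negative and so could not change sign. The 9 that moved are spans or strand ratios of single members. The family share was 15.8% with names of identical counts merged, and 14.4% to 16.7% when 1 animal was left out. With the values of the authors it was 15.7% by construction. Their 1 factor per library cancels out of a share, so that recalculation could not move it. All 5 members were called different between libraries, 0 spanned more than 2-fold, all 10 pairs kept their order and all 6 hairpins kept a higher 5p strand under each alternative tried for them. Of all names tested, the share called ranged from 59.2% without animal 3 to 94.6% at a mean count of at least 100. The calls thus remain nothing particular to the family. For spans over 2-fold, the share over all names is given above for the main setting only. Leaving out an animal can only keep or raise the number of pairs and hairpins in one order. The span of miR-30a-5p was 1.01-fold to 1.61-fold and that of miR-30d-5p 1.19-fold to 1.83-fold with 1 animal left out. A pseudocount of 10 lowered the log2 strand ratio of miR-30d from 12.89 to 12.29 and that of miR-30e from 10.12 to 9.59, since their 3p strands have few counts. No paired analysis was possible because all 3 libraries belong to 1 group.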
